A study of Rattus norvegicus with 12 samples.

Results

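Genes that mark macrophages and other leukocytes were followed through cultures of neonatal rat cardiac fibroblasts in which Yap, Wwtr1 (the gene for the Yap paralog TAZ) or both had been knocked down. A named list of 55 symbols defined the genes, with Lyz2, Cd68 and C1qa as the leading markers. Of these, 48 had a value in the table of 12271 genes, and all 48 passed the filter on low values. The 7 symbols without a value were Cd163, Marco, Stab1, Cd5l, Itgax, Ccr2 and F13a1.

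The RNA came from cardiac fibroblasts of Sprague Dawley rat ventricles taken at postnatal day 2, separated on a Percoll gradient and grown, per the labels, in medium with 15% serum. Cells received 2 siRNAs against each target, each at 25 nM, and the labels have RNA collected 48 h after transfection. The study's methods also give, in 1 passage, a change to medium with less serum on the day after transfection and a correspondingly later collection, which could not be settled from the labels. The 4 groups of 3 libraries were negative siRNA (a pair of universal control siRNAs), Yap siRNA, Wwtr1 siRNA, and double knockdown (both targets). All groups shared the rat strain, age, medium and transfection, and the study's methods give separate litters as the source of the 3 replicates. The double knockdown is named for both genes in the titles, while its siRNA field lists the Wwtr1 siRNAs alone. Whether the total amount of siRNA was matched between single and double knockdown is not given in the sources used here. No cell sort against leukocytes was described.

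Levels are given in normalized counts, the read counts of each library divided by its size factor, and are compared between libraries of 1 gene, not between genes, because they are not scaled to transcript length. Totals of the recovered counts ran from 33.9 M to 41.1 M per library, above the number of reads per sample given in the study's methods. Yap1 was at 2984 to 3776 normalized counts with negative siRNA, at 532 to 625 with Yap siRNA, and at 713, 739 and 1474 in double knockdown replicates 1, 2 and 3. Wwtr1 was at 2280 to 2565 with negative siRNA, at 524 to 637 with Wwtr1 siRNA, and at 818, 731 and 1056 in the double knockdown. Double knockdown replicate 3 thus kept the most of both targets in its group, still below every negative siRNA library. Whether this bears on its marker levels was not tested. Because its marker levels differ from those of replicates 1 and 2, the counts of marker genes called in the double knockdown are given with and without it. Fibroblast markers summed to 3030220 to 4208710 normalized counts in every library. Of markers of other blood lineages, 2 of 12 for T and NK cells, 0 of 7 for B cells, 1 of 8 for neutrophils and 1 of 7 for mast cells had a value. Summed markers were at 31622 to 68669 normalized counts for cardiomyocytes, 1140 to 2542 for endothelial cells, 18244 to 45629 for mural cells, 863 to 1685 for mesothelial cells and 0 to 27.2 for the 1 red cell gene. The neutrophil gene, Camp, was listed at 0 in all 3 negative siRNA libraries and all 3 Wwtr1 siRNA libraries, at 0, 18.2 and 5.24 with Yap siRNA and at 27.8, 35.96 and 21.1 in the double knockdown, and was too low to be tested. The mast cell gene, Kit, rose by 1.05 with Yap siRNA (adjusted p 0.032 by limma, SE 0.24) and by 1.73 in the double knockdown (adjusted p 0.000253 by limma, SE 0.24). In the double knockdown limma also called 4 of 8 endothelial markers higher, and 3 of 6 mural markers higher and 1 lower. It called 2 of 9 cardiomyocyte markers higher and 1 lower, and 4 of 10 fibroblast markers higher and 2 lower. Of 3 mesothelial markers 1 was called lower. Over all genes 17.1% were called higher and 15.6% lower. Without double knockdown replicate 3 the calls were 2 of 7 endothelial markers higher, and 4 of 6 mural markers higher and 1 lower. They were 1 of 9 cardiomyocyte markers higher and 1 lower, and 4 of 10 fibroblast markers higher and 2 lower. Of 3 mesothelial markers 1 was again called lower. Over all genes 17% were then called higher and 17.3% lower, and Kit was called at 1.97. Genes induced by interferon stood far higher in every knockdown group than with negative siRNA, with library medians over the list from 2.92 to 6.01 (log2 over the negative siRNA mean). Their part in the results below was not tested.

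Resident macrophages of the heart are phagocytes that depend on colony-stimulating factor 1, the product of Csf1, through its receptor Csf1r. Their identity rests on the transcription factor PU.1, the product of Spi1, which binds purine-rich sites with a GGAA core in promoters and enhancers of many of the genes followed here. They clear debris through scavenger and lectin receptors and take up opsonised particles through Fc receptors that signal with the adaptor Fcer1g. They also make C1q, the recognition molecule of the classical complement pathway. Fibroblasts of many tissues make Csf1, so that gene is a signal to macrophages as much as a marker of leukocytes. Yap and TAZ act with TEAD transcription factors, whose sites read GGAATG.

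The promoters were searched for the letters of 3 motifs. RefSeq promoters (build GRCr8, 250 bases before to 50 after the gene's start) were at hand for 31 of the 48 genes and for 9677 of all genes in the table. The letters GAGGAA, the core of PU.1 sites, stood on either strand in 20 of the 31 (64.5%) and in 26.8% of all 9677. The other 11, that of the leading marker C1qa included, did not hold these letters in this window. The TEAD letters GGAATG stood in 2 of the 31 (6.45%), those of Ms4a7 and Clec4a3, and in 11.2% of all. The interferon response letters, GAAA repeated after a gap of 2 bases, stood in 5 of the 31 (16.1%), those of Ms4a7, Ctss, Adgre1, Ncf1 and Cybb, and in 2.88% of all. GAGGAA and GGAATG share the letters GGAA, so 1 stretch can match both. A match is a description of the letters, not a bound site.

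The 250 bases before the start are shown for Lyz2 and Cd68, which lead the list, for C1qb, the C1q chain with the lowest log2 fold change in every knockdown group, and for Cx3cr1, the gene with the largest decrease in the double knockdown. They read 5′ to 3′ along each gene, all on the minus strand of GRCr8, at chr7:54798012-54798261, chr10:54882442-54882691, chr5:154407828-154408077 and chr8:128677067-128677316 in that order. The libraries themselves were aligned to another build, rn6. Capitals mark GAGGAA or its complement.
Lyz2: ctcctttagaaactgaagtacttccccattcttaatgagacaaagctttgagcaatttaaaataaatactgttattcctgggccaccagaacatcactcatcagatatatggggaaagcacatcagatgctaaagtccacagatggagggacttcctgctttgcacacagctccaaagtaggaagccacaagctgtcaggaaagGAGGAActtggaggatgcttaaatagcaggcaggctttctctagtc
Cd68: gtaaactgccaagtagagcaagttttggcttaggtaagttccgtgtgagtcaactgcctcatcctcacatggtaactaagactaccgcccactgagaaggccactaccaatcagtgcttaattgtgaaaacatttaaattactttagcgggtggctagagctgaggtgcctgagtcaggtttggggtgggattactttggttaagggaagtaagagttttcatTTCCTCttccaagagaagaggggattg
C1qb: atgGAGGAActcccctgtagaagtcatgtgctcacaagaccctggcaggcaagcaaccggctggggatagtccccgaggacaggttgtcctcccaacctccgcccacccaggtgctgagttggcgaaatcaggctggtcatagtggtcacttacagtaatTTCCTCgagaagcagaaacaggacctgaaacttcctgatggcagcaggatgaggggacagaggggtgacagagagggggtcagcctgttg
Cx3cr1: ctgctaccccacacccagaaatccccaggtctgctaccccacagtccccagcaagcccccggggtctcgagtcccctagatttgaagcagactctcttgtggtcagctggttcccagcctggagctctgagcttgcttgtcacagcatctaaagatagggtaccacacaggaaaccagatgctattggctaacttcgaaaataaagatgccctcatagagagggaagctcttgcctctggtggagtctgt
In the bases shown C1qb held 2 matches, Lyz2 and Cd68 1 each and Cx3cr1 0, and a further match of Cd68 lay past the start.

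The 3 leading markers were well above the detection limit in the negative siRNA cultures. Lyz2, the lysozyme of macrophages, was at 14275, 10644 and 9893 normalized counts in replicates 1, 2 and 3. Cd68, a lysosomal glycoprotein of phagocytes, was at 4758, 3255 and 2839. C1qa, the A chain of C1q, was at 1739, 1377 and 1321. Replicate 1 was the highest of the 3 for each of them, and 44 of the 48 genes lay above their negative siRNA mean in that library. Other genes of the list were near the detection limit with negative siRNA. Ms4a7, a membrane protein of macrophages, was at 10.3, 0 and 16.5 normalized counts and Lyve1 at 17.4, 12 and 17.6, and Ccr1 was at 19.5 in its lowest library. In bulk RNA, fewer macrophages and less macrophage RNA per cell cannot be told apart.

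Across libraries the genes moved largely together. The value given here for a library is a median over the 48 genes. For each gene it takes the log2 level, with a pseudocount of 1, minus the mean of the log2 levels in the negative siRNA libraries. It was 0.29, -0.02 and -0.24 in negative siRNA replicates 1, 2 and 3, and 0.20, -0.05 and -0.34 with Yap siRNA. With Wwtr1 siRNA it was -0.96, -0.39 and -0.58, below every negative siRNA library. In the double knockdown it was -1.56, -0.82 and 0.96. As a plain ratio to the arithmetic negative siRNA mean, the median was 0.331 and 0.549 in replicates 1 and 2 and 1.93 in replicate 3. Over all 11871 genes tested the median log2 fold change against negative siRNA was -0.0041 after loss of Yap, 0.0047 after loss of Wwtr1 and 0.0035 after loss of both.

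The double knockdown libraries had the same order in macrophage genes outside the list of 48. Over 52 further genes of the macrophage programme the library medians were 0.16, 0.03 and -0.18 with negative siRNA, and -0.58, -0.25 and -0.32 with Wwtr1 siRNA. In the double knockdown they were -0.99, -0.16 and 0.92, again lowest in replicate 1 and highest in replicate 3. The sizes differed, with a median log2 fold change of -0.02 over the 52 genes in the double knockdown against -0.41 over the 48.

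With Yap siRNA, no gene of the 48 passed the test. This comparison asks what loss of Yap alone did to the markers. Limma called 570 of 11871 genes (4.8%) at an adjusted p under 0.05, and 0 of the 48. An unadjusted p under 0.05 was reached by 1 of the 48 (Itgal) and by 2342 of the 11871 genes. On whole reads edgeR called 0 of the 48 (4.52% of all genes) and DESeq2 2, Itgal and Cx3cr1, both lower (8.54%). The median log2 fold change over the 48 was -0.09, and 32 lay below 0. All 3 Yap siRNA libraries lay below every negative siRNA library for 7 of the 48 (12.6% of all genes tested) and above for 2 (13.5%).

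The gene that stood apart with Yap siRNA was Cx3cr1, the fractalkine receptor of monocytes and resident macrophages. It was at 276, 260 and 295 normalized counts with negative siRNA (mean 277 ± 17.4 SD, n = 3) and at 51.2, 52.5 and 62.8 with Yap siRNA (55.5 ± 6.38, n = 3). The groups did not overlap, and each Yap siRNA library held 0.185 to 0.227 of the negative siRNA mean, the lowest share of any of the 48 genes in each of these libraries. The log2 fold change was -2.30 (adjusted p 0.27 by limma, SE 1.09) in the fit of all 12 libraries. Without double knockdown replicate 1, listed at 0, the same comparison gave an SE of 0.45 (adjusted p 0.0194 by limma). Deviations of same-numbered negative, Yap and Wwtr1 siRNA libraries correlated weakly, at 0.104 to 0.276, with 0.1 the limit used to accept pairing. In the fit of those 9 libraries with the replicate number as a block the SE was 0.34 and the limma adjusted p 0.00118. The same block on all 12 libraries gave an SE of 0.91 and a limma adjusted p of 0.17.

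In the blocked fit of 9 libraries 6 of the 48 were called with Yap siRNA, against 16.3% of all genes. With the block on all 12 libraries only Itgal was called, against 7.36% of all genes. In the fit of 9 libraries C1qb (-0.86), C1qc (-0.83), Itgal (-0.97) and Cx3cr1 fell. Siglec1, a sialic acid-binding receptor of macrophages, rose by 0.87 (adjusted p 0.00145 by limma, SE 0.13) and Gpnmb, a lysosomal glycoprotein, by 0.29 (adjusted p 0.017 by limma, SE 0.07). Siglec1 was at 964, 769 and 607 normalized counts with negative siRNA and at 1753, 1599 and 971 with Yap siRNA, each library above all 3 controls.

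With Wwtr1 siRNA, 46 of the 48 genes had a log2 fold change below 0, with a median of -0.66, whereas 49.1% of all genes did, with a median near 0. With the library median of 52 further macrophage genes as a covariate, a setting chosen after seeing the data, 33 of the 48 lay below 0 with a median of -0.12 (36 and -0.21 without double knockdown replicate 3), and Cd68 turned from -0.29 to 0.21. The covariate itself was lower in every Wwtr1 siRNA library than in every negative siRNA library. Limma called 2 of the 48, both lower, against 8.96% of all genes in either direction and 3.96% lower. All 3 Wwtr1 siRNA libraries lay below every negative siRNA library for 23 of the 48 (16% of all genes tested), and for 0 did they lie above (16.6%). Against the negative siRNA library of the same number, 33 of the 48 were lower in all 3 comparisons, as were 26.1% of all genes.

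The 2 genes called with Wwtr1 siRNA were Itgal and Csf1. Itgal, the alpha chain of the leukocyte integrin LFA-1, was at 1230, 662 and 1067 normalized counts with negative siRNA and at 318, 353 and 416 with Wwtr1 siRNA. The log2 ratio to the controls was -1.40 (adjusted p 0.00723 by limma, SE 0.27). Every Wwtr1 siRNA library lay below every control. On whole reads edgeR called these 2 genes as well (8.75% of all genes), and DESeq2 called Cx3cr1 beside them, also lower (13%). Csf1 was at 9990, 11600 and 10268 with negative siRNA and at 8272, 8574 and 8993 with Wwtr1 siRNA, again without overlap. Its log2 fold change of -0.30 (adjusted p 0.0413 by limma, SE 0.08) lost the call in 8 of 12 fits without 1 library, where it ran from -0.34 to -0.23. Csf1r, the receptor, was at 4392, 4047 and 3378 with negative siRNA and at 1568, 3054 and 2645 with Wwtr1 siRNA, which gives a log2 ratio of -0.75 (adjusted p 0.455 by limma, SE 0.55). In the blocked fit of 9 libraries Csf1r was called, with an SE of 0.20 (limma adjusted p 0.0226).

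The blocked fit of the negative, Yap and Wwtr1 siRNA libraries called 28 of the 48 with Wwtr1 siRNA. With the block on all 12 libraries limma called 2, Csf1 and Itgal (11.1% of all genes). Of the 28, 27 were lower, where 10.6% of all genes were, and 1, Siglec1, was higher (0.43, SE 0.13, limma adjusted p 0.0402). The lower genes of the blocked fit without the double knockdown came from all 9 roles with a measured gene. They held all 3 C1q chains, C1qa at -0.77, C1qb at -1.43 and C1qc at -1.17. Among lysosomal and lytic proteins they held Lyz2 (-0.84), the protease gene Ctss (-0.61) and the macrophage elastase gene Mmp12 (-0.68), and among transcription factors Spi1 (-0.68). Without double knockdown replicate 3, the fit of 11 libraries called 10 of the 48 lower with Wwtr1 siRNA, where 5.66% of all genes were.

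Values in single libraries show how even the decrease was. Lyz2 was at 4278, 8572 and 7195 normalized counts with Wwtr1 siRNA, each below all 3 controls. C1qa was at 763, 1013 and 820, also below all controls. Cd68 was at 2520, 3424 and 2766, within the range of its controls in replicate 2. Gpnmb, at 64331, 46964 and 36463 with negative siRNA, was at 47627, 45652 and 33642, and these groups overlapped. The log2 fold change was -0.29 (SE 0.46) for Cd68 and -0.20 (SE 0.34) for Gpnmb, and limma called neither.

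Yap and Wwtr1 siRNA were also compared directly. All 48 genes had a higher fitted level with Yap siRNA than with Wwtr1 siRNA, by log2 differences of 0.17 to 1.23 with a median of 0.57. With the covariate the median difference was 0.025, with 27 of the 48 higher with Yap siRNA, and without double knockdown replicate 3 as well it was 0.105, with 35 higher. Limma called 0 of the 48, where it called 8.79% of all genes. An unadjusted p under 0.05 was reached by 1 of the 48 and by 2898 of all 11871 genes. With the block on all 12 libraries limma called 0 of the 48 (10.6% of all genes). In the blocked fit of 9 libraries 21 of the 48 were called, all higher with Yap siRNA, where 11.8% of all genes were. Lilrb4, an inhibitory immunoglobulin-like receptor, differed by 1.00 (adjusted p 0.000327 by limma, SE 0.12) and Gpnmb by 0.49 (adjusted p 0.000881 by limma, SE 0.07). For Cx3cr1 the difference was 0.17 (adjusted p 0.755 by limma, SE 0.34). On whole reads edgeR called 0 of the 48 (8.63% of all genes) and DESeq2 1, Csf1, higher with Yap siRNA (13.8%).

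In the double knockdown 4 of the 48 genes fell and 0 rose by limma, where 32.8% of all genes were called and 15.6% were called lower. Of the other 44, 2 had an unadjusted p under 0.05 by limma, as did 5080 of all 11871 genes. On whole reads edgeR called 4 of the 48 with 0 higher (32.5% of all genes in either direction), and DESeq2 called 5 with 1 higher, Lyve1 (35.4%). The median log2 fold change over the 48 was -0.41. Leaving out double knockdown replicate 3 gave -1.15, and leaving out replicate 1 gave 0.11. All 3 double knockdown libraries lay below every control for the same 4 genes (21.5% of all genes tested) and above for 1, Lyve1 (23.1%).

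The 3 double knockdown libraries were ordered alike for nearly every gene. Replicate 3 was the highest of them for 47 of the 48 genes, against 37.7% of all genes, and 46 of the 48 had replicate 1 below replicate 2 below replicate 3, against 22.1% of all genes. The median gene was 5.95-fold higher in replicate 3 than in replicate 1 and 3.27-fold higher than in replicate 2. Replicate 1 lay below every control for 44 of the 48 (38% of all genes) and replicate 2 for 39 (36.6%), while replicate 3 lay above every control for 43 (37.8%). Over all genes, too, replicate 3 stood apart, with a chi-square per gene of 122 and 126 against replicates 1 and 2, where every other pair within a group was at 50.7 or less. Medians over the endothelial markers were 0.65, 0.28 and 1.47 in replicates 1, 2 and 3 (log2 over the negative siRNA mean), and those over the fibroblast markers -0.11, 0.00093 and 0.52, both highest in replicate 3, as were mesothelial markers (0.14, -0.23 and 0.52). Medians over cardiomyocyte markers (0.41, 0.93 and 0.70) and mural markers (0.68, 0.79 and 0.65) were highest in replicate 2. Their part in the order of the leukocyte genes was not tested. The exception to the order at the top was Csf1, at 8536, 8843 and 8478 normalized counts.

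Genes of each role showed the split between libraries. Lyz2 was at 2648, 5653 and 20210 normalized counts in double knockdown replicates 1, 2 and 3, C1qa at 374, 637 and 2913, and Cd68 at 1598, 3238 and 8673. Mrc1, the mannose receptor, was at 2410, 1924 and 1365 with negative siRNA and at 542, 909 and 3822 in the double knockdown. Each of these genes was below all 3 controls in replicate 1 and above all 3 in replicate 3. Fcer1g, the gamma chain that Fc receptors signal through, was at 3774, 2811 and 2794 with negative siRNA and at 817, 1638 and 4891 in the double knockdown. Itgam, the alpha chain of complement receptor CR3, was at 837, 910 and 645 and then at 232, 538 and 1769. For both, too, replicates 1 and 2 lay under the controls and replicate 3 over them.

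Laptm5, a lysosomal membrane protein of blood cells, was at 4233, 3134 and 2811 normalized counts with negative siRNA and at 797, 1419 and 5431 in the double knockdown. Spi1 was at 1269, 1019 and 821 and then at 402, 745 and 2287. Lcp1, the actin-bundling protein plastin of leukocytes, was at 4986, 4793 and 3692 and then at 1118, 1809 and 7686. All 3 genes were below their controls in replicates 1 and 2 and above them in replicate 3. Gpnmb ran otherwise at the low end, at 43424, 51255 and 120077, with replicates 1 and 2 inside the range of the controls. The log2 fold changes in the fit of all libraries were -0.87 for Laptm5 (SE 0.51), -0.21 for Spi1 (SE 0.47) and -0.83 for Lcp1 (SE 0.52), and limma called none of the 3.

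Further genes of the same roles were compared library by library. Ptprc, the phosphatase CD45 carried by nucleated blood cells, was at 1138, 1010 and 904 normalized counts with negative siRNA and at 268, 484 and 1482 in the double knockdown. Tyrobp, the adaptor DAP12, was at 2156, 1687 and 1612 and then at 570, 1009 and 2547, and its partner receptor Trem2 at 1166, 677 and 700 and then at 322, 471 and 1353. All 3 genes were below their controls in replicates 1 and 2 and above them in replicate 3. Cybb, the membrane subunit of the NADPH oxidase, was at 947, 970 and 582 and then at 280, 495 and 1763. Ncf1, a cytosolic subunit, was at 2486, 1729 and 1540 and then at 1371, 1788 and 3001, with replicate 2 inside the range of its controls.

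Among scavenger and pattern receptors, Msr1 was at 1075, 901 and 623 normalized counts with negative siRNA and at 231, 559 and 2590 in the double knockdown, and Cd14, the lipopolysaccharide co-receptor, at 1817, 1697 and 1114 and then at 734, 946 and 2970. Both were lower than every control in replicates 1 and 2. Among cytoskeletal proteins Coro1a, an actin-binding coronin, reached 898 at most in the double knockdown against 650 to 850 with negative siRNA. Cd4, which rat macrophages carry as helper T cells do, was at 104, 180 and 596 against 351 to 587. Adgre1, the macrophage antigen F4/80, was at 25.9, 65.2 and 192 against 111 to 243, and so stayed inside the range of its controls in replicate 3. Over the 48 genes, replicate 3 ran from 0.161-fold (Fcrl2) to 9.18-fold (Lyve1) of the negative siRNA mean.

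Relative to the negative siRNA mean, the highest values in double knockdown replicate 3 were those of Lyve1 (9.18-fold), Ccr1 (9.14-fold), Ms4a7 (6.48-fold) and Fcgr2b (4.64-fold). Ccr1, a chemokine receptor, was at 12.9, 19.2 and 348 normalized counts. Lyve1, a hyaluronan receptor of resident macrophages and lymphatic vessels, was at 18.9, 38.5 and 144, against 17.4, 12 and 17.6 with negative siRNA. Mmp12 was at 2468, 3733 and 23791 against 6877, 7500 and 6256. Each of the 3 was above all its controls in replicate 3.

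4 genes were low in all 3 double knockdown libraries. Cx3cr1 was at 0, 24.2 and 48.3 normalized counts, and the fitted log2 ratio was -4.69 (adjusted p 0.00647 by limma, SE 1.09). Without replicate 1, which was listed at 0, the value was -2.98, so its size depends on that library and on the pseudocount while the call held in all 12 fits without 1 library. Fcrl2, an Fc receptor-like protein, was at 3382, 2530 and 1190 with negative siRNA and at 25.9, 365 and 380 in the double knockdown, a log2 ratio of -3.80 (adjusted p 0.0105 by limma, SE 0.97). It ran from -4.45 to -2.54 without 1 library, and the call held in all 12 such fits. With Wwtr1 siRNA Fcrl2 was at 160, 1272 and 674 and with Yap siRNA at 1813, 1421 and 691, and both of those groups overlapped the controls. Fcrl2, Fcgr2b, Lilrb4 and Clec4a3 belong to families with close copies. The handling of reads that match several copies, like the strand setting of the counting, is not given in the sources used here. Reads of copies may therefore be split among them.

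Itgal was at 195, 279 and 404 normalized counts in the double knockdown, at -1.76 (adjusted p 0.000471 by limma, SE 0.27), and was called without any 1 of the 12 libraries. In the single knockdowns it was at 559, 420 and 494 with Yap siRNA and at 318, 353 and 416 with Wwtr1 siRNA, so every knockdown library of all 3 groups lay below every control library. The same held for Cx3cr1, at 21.9, 55.1 and 95.5 with Wwtr1 siRNA. Csf1 in the double knockdown had a log2 fold change of -0.30 (adjusted p 0.0156 by limma, SE 0.08), a call lost without negative siRNA replicate 2 (-0.23, limma adjusted p 0.0649). Its 3 double knockdown libraries spanned less than the 3 controls, and replicate 3 did not stand apart.

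**Figure D1:**
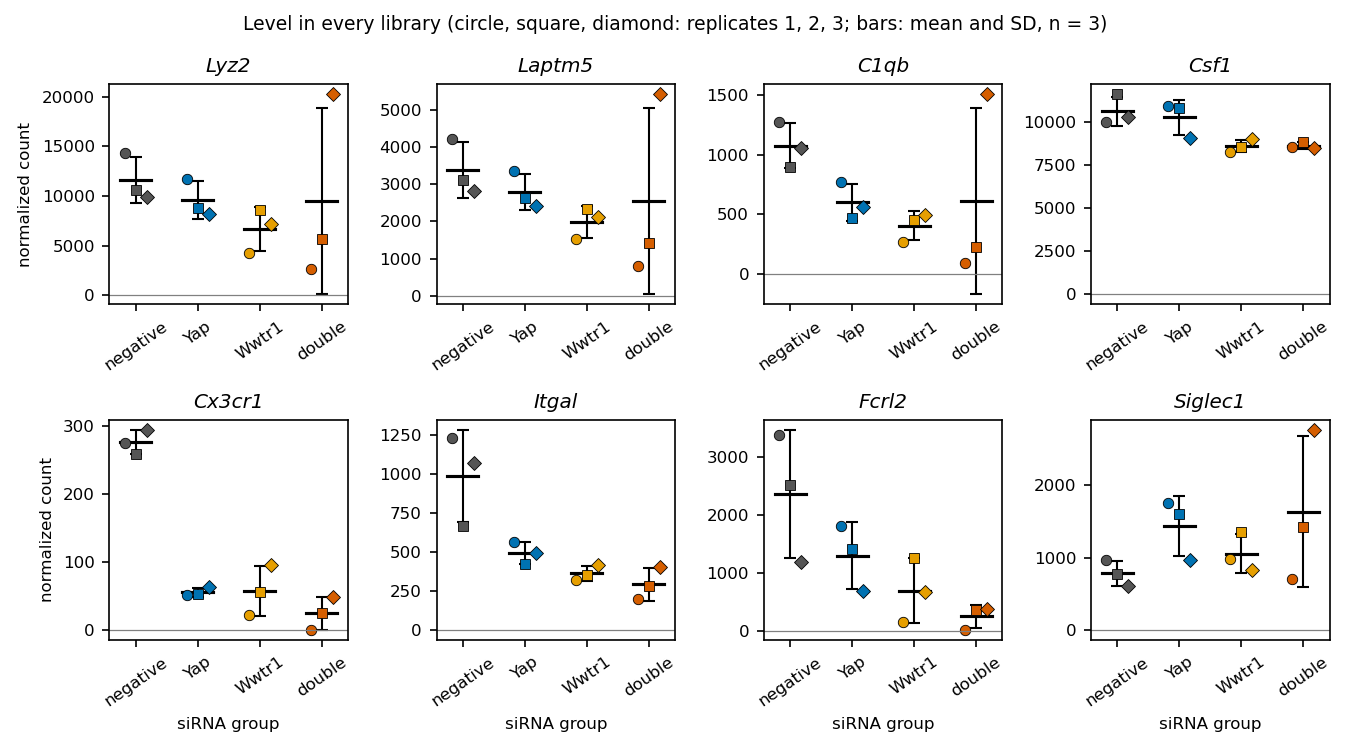
The y axes give normalized counts from 0 for 8 genes in the 4 siRNA groups, with a circle, square and diamond for replicates 1, 2 and 3, and a bar with whiskers for the mean and SD of 3 libraries. Lyz2, Laptm5, C1qb and Siglec1 have double knockdown replicate 3 far above the other two, whereas Cx3cr1, Itgal and Fcrl2 are low in all 3 and Csf1 lies between 8478 and 8843.

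Without double knockdown replicate 3, limma called 35 of the 48 genes lower in the double knockdown and 0 higher, where 17.3% of all genes were called lower. That fit of 11 libraries leaves 2 in the group and was singled out with the values of replicate 3 known. Replicate 3 was the highest of its group for 47 of the 48 genes, so leaving it out lowers their fitted levels. C1qb fell by 2.83 on the log2 scale (adjusted p 0.000167 by limma, SE 0.35), Laptm5 by 1.65 (adjusted p 0.000662 by limma, SE 0.26) and Csf1r by 1.72 (adjusted p 0.00208 by limma, SE 0.33). Lyz2 fell by 1.57 and C1qa by 1.59, while Cd68 was at -0.63 (adjusted p 0.133 by limma, SE 0.31). Genes that remained uncalled there included Gpnmb, Siglec1, Lyve1, Mpeg1, Ncf1 and Fcgr2b. Without double knockdown replicate 1 in its place, 6 were called, the 4 above as lower and Siglec1 and Lyve1 as higher, where 26.1% of all genes were called in either direction.

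**Figure D2:**
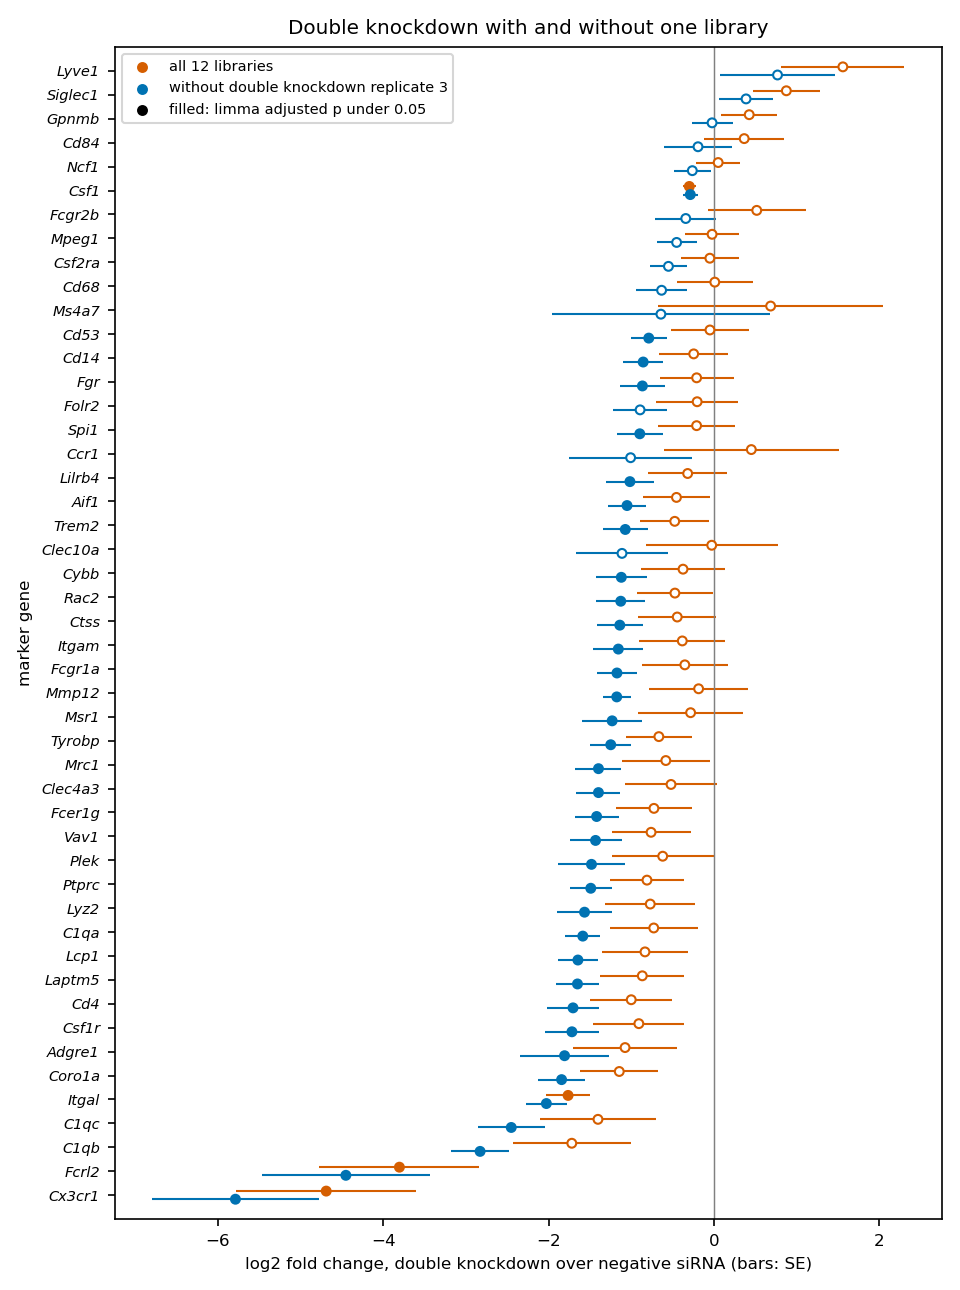
The x axis gives the log2 fold change of the double knockdown over negative siRNA with its SE as a bar, for 48 genes on the y axis, from all 12 libraries and without double knockdown replicate 3. Filled points have a limma adjusted p under 0.05, and they number 4 with all libraries and 35 without the 1 library. That library was the highest of its group for 47 of the 48 genes.

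In the double knockdown, the fit with the level of the other macrophage genes as a covariate called 20 of the 48 lower, where 17.9% of all genes were, and Siglec1 and Lyve1 higher. That covariate comes from the same libraries and itself moved with the knockdowns. Of its 52 genes, 13 were called higher in the double knockdown, so the values with it are relative to those genes. Cx3cr1 (-4.48), Fcrl2 (-3.63), Itgal (-1.72), C1qb (-1.56) and C1qc (-1.25) were the lowest. Siglec1 was higher by 0.96 (adjusted p 0.00115 by limma, SE 0.17). It lay above the median gene of the list in all 9 knockdown libraries, by 0.68 to 1.72 on the log2 scale. Cd68, Gpnmb and Folr2 also lay above the median gene in all 9. With the covariate and without double knockdown replicate 3, 19 of the 48 were called lower, where 10.8% of all genes were, and Siglec1 alone higher (1.17, limma adjusted p 0.0076). The value of Cx3cr1 was then -3.63, that of Fcrl2 -1.77, that of C1qb -2.01 and that of C1qc -1.51, all called lower.

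The C1q chains were also read library by library. C1qb was at 1277, 898 and 1052 normalized counts with negative siRNA, at 774, 468 and 560 with Yap siRNA, at 272, 455 and 495 with Wwtr1 siRNA, and at 97.5, 227 and 1504 in the double knockdown. The Yap and Wwtr1 siRNA libraries all lay below the controls. C1qa with Yap siRNA was at 1442, 1337 and 1113, which overlapped its controls. With the covariate C1qb fell by 0.91 and C1qc by 0.88 with Yap siRNA (limma adjusted p 0.0297 and 0.0332), against -0.23 for C1qa (limma adjusted p 0.418). These values were -0.89, -0.88 and -0.21 (limma adjusted p 0.02, 0.0376 and 0.213) in the fit without double knockdown replicate 3. The difference between the chains was not tested, and in the fit of all 12 libraries with neither covariate nor block limma called none of the 3 with Yap siRNA.

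The interaction asks whether both knockdowns together differed from the sum of each. Limma called 0 of the 48, where it called 1.03% of all genes, and the median was 0.22. Leaving out double knockdown replicate 3 gave -0.46 and leaving out replicate 1 gave 0.83, so the sign turned with the library left out; with the covariate it was -0.13. An unadjusted p under 0.05 was reached by 1663 of all 11871 genes and by 1 of the 48. That 1 was Fcgr2b, the inhibitory Fc receptor, at 3.00 (adjusted p 0.112 by limma, SE 0.84). It was at 2.15 in the fit of 11 libraries that leaves out double knockdown replicate 3 (adjusted p 0.0618 by limma, SE 0.50). On whole reads edgeR called 0 of the 48 for the interaction (0.859% of all genes) and DESeq2 1, also Fcgr2b (4.32%).

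Of the 52 further macrophage genes, 13 rose and 1 fell in the double knockdown, where 17.1% of all genes rose and 15.6% fell. Without double knockdown replicate 3, 10 rose and 20 fell, against 17% and 17.3% of all genes, and the median log2 fold change over the 52 was -0.53. The largest increases were those of Il10, an anti-inflammatory cytokine (4.54), Csf2rb, the shared beta chain of the GM-CSF receptor (2.45), Lpl, lipoprotein lipase (1.99), Hmox1, heme oxygenase 1 (1.65), and Maf, a transcription factor (1.60). Il10 was at 0, 8.0 and 5.17 normalized counts with negative siRNA, at 0 in all 6 single knockdown libraries, and at 72.6, 51.0 and 183 in the double knockdown. Csf2rb was at 320, 311 and 258 with negative siRNA and at 1655, 1088 and 2362 in the double knockdown. Both were above all controls in replicates 1 and 2 as well, where most of the 48 were below theirs. Its partner chain Csf2ra, one of the 48, was at 1387, 1190 and 1150 and then at 663, 1077 and 2397. The gene that fell with all libraries was Alox5ap, needed for leukotriene synthesis, at -1.33 (limma adjusted p 0.0466). With Yap siRNA 2 of the 52 rose (Hmox1 and Maf) and 0 fell, where 3.02% of all genes rose and 1.78% fell. With Wwtr1 siRNA 2 rose (Hmox1 and Lpl) and 1 fell (P2ry6), where 5% rose and 3.96% fell.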

How the data were processed

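RNA of 12 libraries (4 siRNA groups of 3) was sequenced, and per the labels and the study's methods reads were trimmed (Trim Galore 0.6.5), aligned to rn6 (HISAT2), quantified (StringTie2) and normalized with DESeq2 by the authors. The deposited values used here are such normalized counts, a signal per gene on a linear scale; columns of the authors' own comparisons (fold changes, p-values) and a second copy of the table were not used. Every value was a whole multiple of its library's smallest step (tolerance 0.001 of a step, 100% of values), which gave back whole counts, called whole reads here, and the totals per library. Why these totals exceed the reads per sample in the study's methods is not given in the sources used here. The genes followed, the further lists and the rule for the genes named (the leading markers, those called in any comparison, and the highest of each role, with others by range or count) were chosen with earlier results of these data known.

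Genes whose mean reached 10 normalized counts (11871 of 12271) were fitted as log2(normalized count + 1) with limma 3.58.1 (all 12 libraries in 1 fit, trended variance, Benjamini-Hochberg over all genes tested, two-sided, called at an adjusted p under 0.05). Fold changes on this scale understate those of low genes. The steps were tested on simulated counts. Deviations of same-numbered libraries from their group means correlated at 0.104 to 0.276 (9 pairs) among negative, Yap and Wwtr1 siRNA, above the limit of 0.1 used to accept pairing, and at -0.127 to 0.180 with the double knockdown. Replicates of a group differed by a chi-square of 20.0 to 126 per gene, so none was a duplicate. Alternatives were other pseudocounts, filters, scalings and sample sets, the replicate block, the covariate (with and without double knockdown replicate 3), edgeR 4.0.16 and DESeq2 1.42.0 on the whole reads, and each library left out. Promoters were RefSeq's (GRCr8). Symbols of 11860 genes (96.7%) matched that annotation.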

Additional observations from a re-analysis of the deposited data

Results flagged for a closer look

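Fcgr2b, the inhibitory Fc receptor, stood out because the effect of Wwtr1 siRNA ran in opposite directions without and with Yap siRNA. It was at 220, 192 and 140 normalized counts with negative siRNA and at 45.9, 38.8 and 104 with Wwtr1 siRNA, so all 3 libraries were lower. It was at 116, 104 and 83.8 with Yap siRNA and at 132, 153 and 853 with both, so all 3 were higher. The difference between the effects was 3.00 on the log2 scale (SE 0.84), which limma did not call over all genes (adjusted p 0.112). With the other macrophage genes as a covariate, a setting chosen after seeing the data, it was 2.61 (adjusted p 0.027 by limma), and DESeq2 on whole reads also called it. It was 2.15 without double knockdown replicate 3 (adjusted p 0.0618 by limma), and 2.28 with the covariate as well (adjusted p 0.0564 by limma). Double knockdown replicate 3 holds the highest value, and replicates 1 and 2 alone also lie above the Yap siRNA libraries.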

How the results depend on the processing

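Of the genes called lower, Itgal (double knockdown and Wwtr1 siRNA), Fcrl2 and Cx3cr1 (double knockdown) were called under every alternative run for them, with the size of Cx3cr1 set by the pseudocount and by the library at 0. Csf1 with Wwtr1 siRNA lost its call without the variance trend, with the covariate and in 8 fits without 1 library. How many of the 48 were called depended on the fit. Using only the 2 groups compared gave 4 with Yap siRNA, 19 with Wwtr1 siRNA and 4 between them, against 4.08%, 10.9% and 8.34% of all genes. The replicate block gave 1 with Yap siRNA with all 12 libraries (7.36%), and 6, 28 and 21 in those comparisons with the double knockdown left out (16.3%, 21.7% and 23%); it changed no other call count. DESeq2 gave 2 with Yap siRNA, 3 with Wwtr1 siRNA (Cx3cr1 added), 5 in the double knockdown (Lyve1 added, higher), 1 between Yap and Wwtr1 siRNA and 1 for the interaction, against 8.54%, 13%, 35.4%, 13.8% and 4.32% of all genes. A pseudocount of 10 gave 1 with Yap siRNA and 3 with Wwtr1 siRNA (Cx3cr1 added; 4.7% and 9.06% of all genes), edgeR gave 0, 2 and 4 with Yap siRNA, Wwtr1 siRNA and both (4.52%, 8.75% and 32.5%), and no variance trend gave 1 with Wwtr1 siRNA (7.01%). The covariate gave 5 with Yap siRNA, 22 in the double knockdown, 1 between the single knockdowns and 1 for the interaction (6.34%, 36.5%, 8.95% and 1.95% of all genes), and moved the median over the 48 to -0.12 with Wwtr1 siRNA and to 0.025 between them. The covariate without double knockdown replicate 3, also chosen after seeing the data, gave 5 with Yap siRNA, 5 with Wwtr1 siRNA, 20 in the double knockdown and 0 between the single knockdowns and for the interaction (6.08%, 7.06%, 22.2%, 4.76% and 1.33%), with medians of -0.21 with Wwtr1 siRNA and 0.105 between the single knockdowns; Csf1 was then called neither with Wwtr1 siRNA nor with both targets lost. Leaving out 1 library gave 0 to 2 with Yap siRNA, 1 to 10 with Wwtr1 siRNA, 3 to 35 in the double knockdown and 0 to 2 between the single knockdowns, with the highest count without double knockdown replicate 3 in each but the first (without double knockdown replicate 1); these highest counts stand against 4.51%, 12%, 34.2% and 11.9% of all genes. Cd68, near 0 in the double knockdown, changed sign with TMM (-0.0024) and upper-quartile scaling (-0.029) and ran from -0.63 to 0.59 without 1 library; with Wwtr1 siRNA it was 0.21 with the covariate and 0.24 with that library left out too. Apart from leaving out libraries, the cause of these changes was not tested. Depth limits the genes with few reads most, as for Ms4a7, listed at 0 in negative siRNA replicate 2 and double knockdown replicate 2, whose SE was 1.36.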
